A study of Mus musculus with 18 samples.

Results

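The 10 genes described here build and load the MHC class I molecule in mouse CD4 T cells: the heavy chains H2-K1, H2-D1, H2-Q4, H2-Q6, H2-Q7, H2-T22 and H2-T23, the light chain B2m, the peptide transporter subunit Tap1 and the immunoproteasome subunit Psmb8. They were taken by name from a matrix of 33006 genes, and all 10 were present. Their levels were read from unique molecular identifiers (UMIs, 1 per captured transcript), summed over all cells of a sample and a cell class and scaled to a common total as CPM. All cells were splenic TCRβ+ CD4+ T cells of male mice, sorted by flow cytometry and read with droplet libraries that capture the 3′ end of transcripts.

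The 18 samples form 8 groups. In an experiment run with the V2 kit, 2 ∆Foxp3 samples (strain B6 Foxp3DeltaEGFPiCre x ROSA-YFP) and 2 WT samples (B6 Foxp3-IRES-GFP) came from mice aged 3 weeks. With the V3 kit, 2 ∆Foxp3 samples of the same strain and age stood beside 2 WT samples (B6 Foxp3-IRES-GFP x CD45.1) from mice aged 9 weeks, so that in these intact V3 mice genotype and age cannot be told apart. The same WT strain at 9 weeks gave 2 samples of sorted GFP+ Treg cells (regulatory T cells, which express Foxp3) and 2 of sorted GFP- Tconv cells (conventional CD4 T cells). Mixed bone marrow chimeras gave 3 ∆Foxp3 and 3 WT samples, also with the V3 kit. In each chimera a CD45.2 recipient aged 7 weeks had received 1000 rad and CD3-depleted marrow cells, 50% of them from the WT strain of the intact V3 mice and 50% from the ∆Foxp3 strain crossed to CD45.1/2. Its spleen was taken 10 weeks later, at a labelled age of 16 weeks, and the cells were separated by CD45.1 and CD45.2, so that both genotypes had matured in 1 host. ∆Foxp3 cells carry a Foxp3 allele with a GFP and Cre cassette, and such mice lack functional Treg cells. Every group thus carries a Foxp3 reporter allele, and the recipients' own remaining cells were outside the gates.

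Class I molecules display peptides from a cell's own cytosol to CD8 T cells and natural killer cells. The immunoproteasome cuts proteins into peptides, TAP carries these into the endoplasmic reticulum, and a heavy chain folds there around peptide and β2-microglobulin. H2-K1 and H2-D1 encode the classical heavy chains H-2K and H-2D. H2-Q4, H2-Q6 and H2-Q7 belong to the Qa region, where Q6 and Q7 both encode Qa-2-type molecules, H2-T23 encodes Qa-1, a ligand of the CD94/NKG2 receptors, and H2-T22 encodes a ligand of some γδ T cells. Interferons raise the whole pathway through IRF factors and the class I transactivator Nlrc5.

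Interferon and NF-κB letters lie close together in the promoter windows of H2-K1, H2-D1, H2-Q6 and H2-Q7. The stretches below show how alike these letters are among the members whose transcripts moved differently. Each is 30 bases read 5′ to 3′ from RefSeq promoter windows on GRCm38.p6, which matched all 10 members. Capitals mark matches, on either strand, to 9 letters of the κB site (GGGGATTCC), to 9 of the interferon element of class I promoters (TTTCACTTC), or to a general interferon core (GAAANNGAA).
H2-K1 at chr17:34000429-34000458 (- strand): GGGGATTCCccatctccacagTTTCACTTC
H2-D1 at chr17:35262923-35262952 (+ strand): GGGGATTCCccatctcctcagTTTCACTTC
H2-Q4 at chr17:35379443-35379472 (+ strand): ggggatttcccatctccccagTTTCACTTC
H2-Q6 at chr17:35424677-35424706 (+ strand): GGGGATTCCccatctccccagTTTCACTTC
H2-Q7 at chr17:35439021-35439050 (+ strand): tGGGGATTCCcatctccccagTTTCACTTC
H2-T22 at chr17:36042917-36042946 (- strand): ctaattggcttagtTTCACTTTCgaatccc
H2-T23 at chr17:36032809-36032838 (- strand): gggatcctactgctTTCTCTTTCataaaga
B2m at chr2:122147534-122147563 (+ strand): ctttataagaacatGAAACTGAAaatggga

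H2-D1 differs from H2-K1 in this stretch at 1 of 30 bases, A18T, and H2-Q6 likewise at 1, A18C, with positions counted from 1 at the 5′ end. H2-Q4 differs at 2, C8T and A18C, and C8T leaves it 1 letter short of an exact match to the κB letters searched. H2-Q7 differs at 5. G1T, A5G, T6A and C8T arise because its κB letters stand 1 base further along, and A18C is shared with H2-Q4 and H2-Q6. The κB letters occur in 4 members (H2-K1, H2-D1, H2-Q6 and H2-Q7) and in 0.250% of 32851 mouse promoter windows. TTTCACTTC, whose letters were chosen after the windows were seen, occurs in 5 members (those and H2-Q4) and in 0.505% of windows. The general core occurs in H2-T22, H2-T23 and B2m and in 8.56% of windows, and CCAAT in 9 members and 37.4% of windows. The search used both strands, and no match overlaps another in these 30 bases. A match describes letters only and shows no binding.

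Apart from B2m on chromosome 2 (chr2:122147686-122153083 on GRCm38), all members lie in the H2 complex on chromosome 17. There H2-K1 (chr17:33996017-34000347) lies near the proximal end, close to Tap1 (chr17:34187553-34197225) and its neighbour Psmb8 (chr17:34197721-34201454). H2-D1 (chr17:35262730-35267499), H2-Q4 (chr17:35379617-35385290), H2-Q6 (chr17:35424850-35430055) and H2-Q7 (chr17:35439155-35443773) follow, then H2-T23 (chr17:36029773-36032855) and H2-T22 (chr17:36037128-36042747). All are protein coding in the annotation. These spans follow the GENCODE annotation, while the promoter windows follow RefSeq starts. The starts differ, so the printed elements of H2-D1 and H2-T23 fall inside the spans given here. Class I genes are close copies, and reads that match more than 1 copy may be lost or assigned to the wrong copy. In the last 500 bases of the transcript, 26.5% of 90-base words of H2-T22 also occur in another gene, as do 13.4% for H2-T23, 10.9% for H2-Q6 and 9.49% for H2-Q4. The other 6 members share 0 of their words. The gene most shared was H2-T10 for H2-T22 (26.5%), Rab33b for H2-T23 (9.25%), Cd59b for H2-Q6 (5.84%) and Gm43321 for H2-Q4 (8.76%). Values of those 4 heavy chains are uncertain to that extent. No word of H2-Q7 occurs in another gene, so these shares do not measure the split between H2-Q6 and H2-Q7. How reads of that pair were assigned was not checked, and the sum of H2-Q6 and H2-Q7 is given beside them.

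Samples held 148 to 5271 cells and 955097 to 14887898 UMIs, with a median of 2774 to 3143 UMIs per cell in V2 libraries and 4731 to 8857 in V3. Cell classes (resting Tconv, activated Tconv and Treg) follow the authors' deposited annotation, and in ∆Foxp3 samples the Treg class holds the cells that this annotation places there. V2 and V3 levels were not compared. Kit versions follow the sample labels, while the deposited cell table gives V3 for all samples. UMIs of the Cre cassette were found in all 4 intact ∆Foxp3 samples (12 to 33) and in 0 of the WT samples, and the 3 chimera ∆Foxp3 samples held 2, 0 and 3. Foxp3 itself had 10 to 37 UMIs in intact ∆Foxp3 samples, 7 to 9 in chimera ∆Foxp3 samples and 0 to 48 in WT samples, but a 3′ tag may lie outside the altered part of the allele and then checks nothing. A column of the deposited cell table names a strain opposite to the label for WT chimera sample 1 and ∆Foxp3 chimera sample 2. The labels were followed, and counts of members called are also given without those samples. Intact V3 samples that share a hashtag were read in different channels, and no source says whether they came from different mice, so p-values may measure technical spread only. Markers of CD4 T cells summed to 4153 to 6567 CPM, while those of plasma cells stayed at or below 0.252 CPM with Jchain at 0. Between 21.1% and 64.9% of cells per sample held at least 2 UMIs of other cell types' markers or were annotated NKT. In bulk sums, fewer cells of a kind and less RNA per cell cannot be told apart.

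In 3-week-old V2 mice, transcripts of most members were higher in resting ∆Foxp3 Tconv cells than in WT. Of the 10 members 8 were higher and 0 lower (edgeR quasi-likelihood test, adjusted p under 0.05; 19.6% of 10071 genes called, 12% higher and 7.63% lower). The median log2 fold change was 0.886 over the members and -0.01 over all genes.

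Tap1, a subunit of the peptide transporter, had the largest log2 fold change of the 10. It stood at 271 and 285 CPM in the ∆Foxp3 samples and 102 and 103 in WT, a log2 fold change of 1.42 with SE 0.07, adjusted p = 2.47e-05. Both ∆Foxp3 samples lay above both WT samples, by 2.68-fold on the fitted scale. Psmb8, which replaces a constitutive catalytic subunit in the immunoproteasome, read 1456 and 1319.8 CPM against 662 and 648 (log2 fold change 1.07 with SE 0.07, adjusted p = 5.99e-05), again without overlap. The ratio of Psmb8 to Psmb5, the subunit it replaces, was 6.72 ± 0.882 in ∆Foxp3 and 3.39 ± 0.103 in WT (mean ± SD, n = 2 each), in UMIs and not per length.

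Among the non-classical heavy chains, H2-T23 (Qa-1) read 121 and 143 CPM in ∆Foxp3 and 60.5 and 48.2 in WT (log2 fold change 1.25 with SE 0.12, adjusted p = 0.000551). H2-T22 read 439.9 and 495 against 247 and 234 (log2 fold change 0.94 with SE 0.08, adjusted p = 0.000276). In both genes the lower ∆Foxp3 sample stood far above the higher WT sample. H2-Q6 was low in these libraries, at 18.8 and 28.9 CPM against 9.91 and 9.69 (log2 fold change 1.16 with SE 0.21, adjusted p = 0.00711), and H2-Q7 read 347 and 344 against 277 and 290.3 (log2 fold change 0.27 with SE 0.07, adjusted p = 0.0332). The sum of both gave a log2 fold change of 0.32 with SE 0.07, adjusted p = 0.0180. H2-Q4 differed between its own ∆Foxp3 replicates, at 148 and 283 CPM against 108 and 127 in WT. Its difference of 0.83 with SE 0.25, adjusted p = 0.0570, was not called.

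Of the classical heavy chains, whose printed elements differ at 1 base, H2-D1 was called and H2-K1 was not. Their whole promoter windows are 59.3% identical (214 of 361 aligned positions). The element's first base lies at -111 from the annotated transcript start in H2-K1 and at -171 in H2-D1. An ATTGG match (CCAAT on the other strand) lies at -16 and -76. Its distance from the element is the same in both genes, so the windows are shifted against each other. In a second annotated H2-K1 window the element lies at -125 and this match at -30. In shorter stretches around the element, 91.3% of aligned positions are identical between H2-K1 and H2-D1. H2-D1 (H-2D) read 2538 and 2771 CPM in ∆Foxp3 and 2149 and 2039 in WT, a log2 fold change of 0.33 with SE 0.06, adjusted p = 0.00943. H2-K1 (H-2K) read 2064 and 1948 against 1903 and 1959 (log2 fold change 0.04 with SE 0.06, adjusted p = 0.658, 95% interval -0.09 to 0.18), and its groups overlapped. The ratio of H2-D1 to H2-K1 UMIs was 1.33 ± 0.137 in ∆Foxp3 and 1.09 ± 0.0625 in WT. B2m, which pairs with every heavy chain here, read 5556 and 5435 CPM against 3848 and 3898 (log2 fold change 0.49 with SE 0.05, adjusted p = 0.000631). Taken as a share, the 10 members held 1.30 ± 0.00643% of UMIs in resting ∆Foxp3 cells and 0.936 ± 0.000607% in WT (SD, n = 2 each).

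Values that moved with the V2 genotype were recorded beside this. Myeloid markers summed to 13.5 and 13.1 CPM in resting ∆Foxp3 cells and 6.09 and 6.57 in WT, CD8 T and NK markers to 35.0 and 46.9 against 27.6 and 25.1, and B cell markers to 141 and 148 against 189.6 and 215. ∆Foxp3 sample B stood apart in erythroid markers (607 CPM, with 117 to 174 in the other 3). Without the cells that held such markers or were NKT, 7 members were called, all higher. The cell table gives a fraction of reads in cells of 0.597 and 0.534 for the ∆Foxp3 samples and 0.791 and 0.795 for WT, and its part in the result was not tested. Leaving out WT sample A took the count from 8 to 4.

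**Figure D1:**
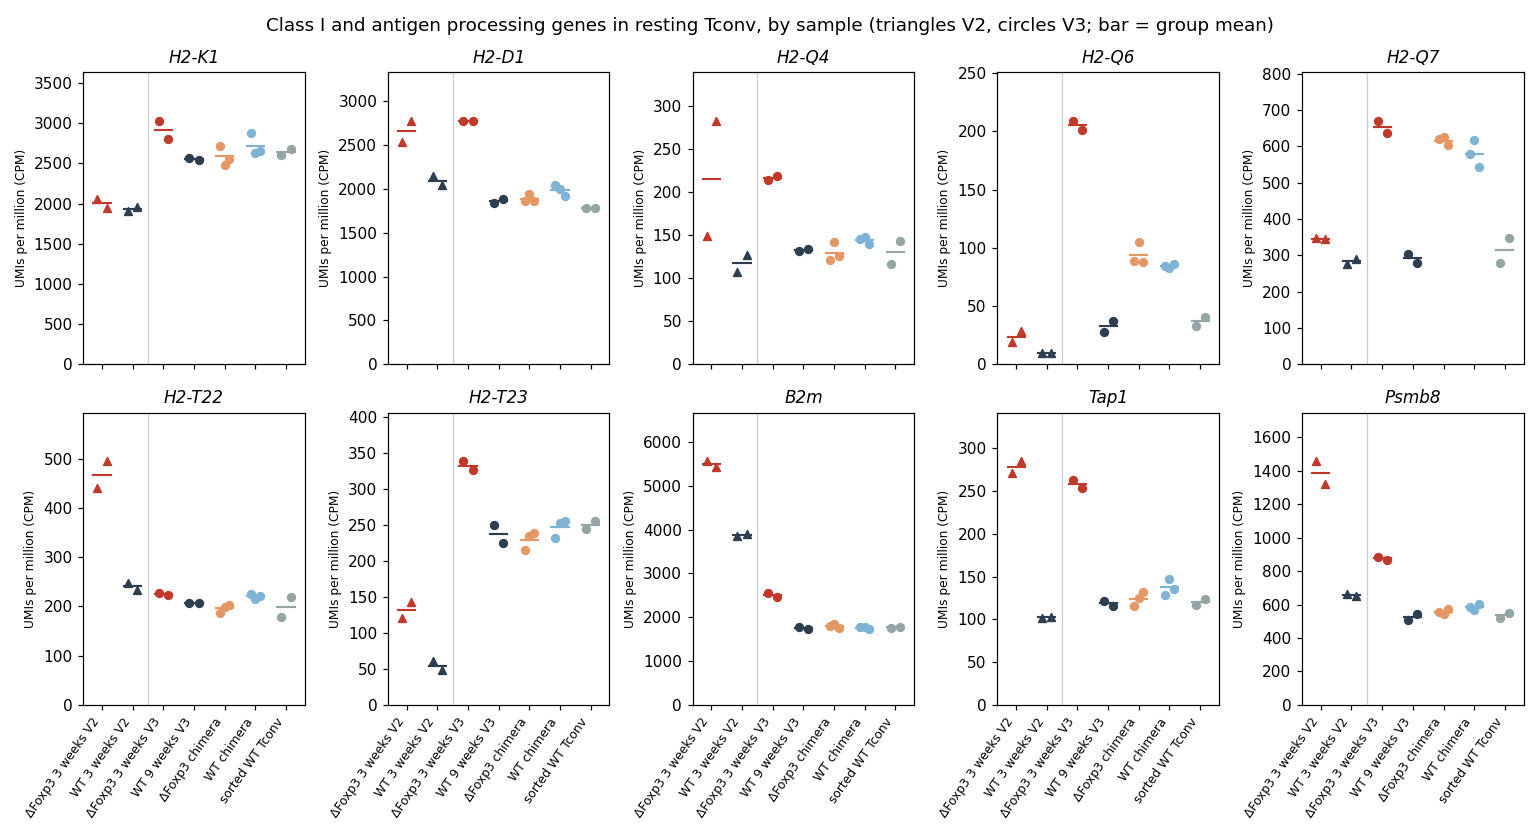
Level of each of the 10 genes in resting Tconv cells, in CPM on a linear axis, by group. Each triangle (V2) or circle (V3) is 1 sample and each bar a group mean. Tap1 in V2 stands at 271 and 285 CPM in ∆Foxp3 and 102 and 103 in WT, and H2-Q6 in V3 at 209 and 201 in intact ∆Foxp3 and 28.2 and 37.5 in intact WT. V2 and V3 points are not comparable.

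Activated Tconv and Treg cells of the same V2 mice were tested in the same way. In activated cells 7 of 10 members were higher and 0 lower (edgeR; 15.2% of 8170 genes called, 9.16% higher and 6% lower). Tap1 read 285 and 296 CPM in ∆Foxp3 and 157 and 121 in WT (log2 fold change 1.06 with SE 0.13, adjusted p = 0.000519), and H2-Q6 read 133 and 154 against 79.9 and 63.8 (log2 fold change 0.98 with SE 0.14, adjusted p = 0.00130). H2-D1 read 4104 and 4423 against 2927 and 2700.1 (log2 fold change 0.60 with SE 0.08, adjusted p = 0.00123). H2-T23, Psmb8, H2-T22 and H2-Q7 were also higher, with log2 fold changes of 0.71, 0.53, 0.50 and 0.35, the last with an adjusted p of 0.0497. H2-K1 (0.04), B2m (0.13) and H2-Q4 (0.56) were not called. Without WT sample B the count was 4, and DESeq2 also called 4. B cell markers in these activated cells summed to 73.7 and 61.9 CPM in ∆Foxp3 and 206 and 273 in WT, while myeloid markers (32.9 and 23.3 against 28.8 and 19.1) and CD8 T and NK markers (72.0 and 80.8 against 104 and 69.0) overlapped. Without cells that held markers of other types or were NKT, 6 members were called.

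In cells of the Treg class, 7 members were higher and 0 lower (edgeR; 16.2% of 5492 genes called, 8.52% higher and 7.68% lower). Tap1 read 356 and 395 CPM in ∆Foxp3 and 151 and 152 in WT (log2 fold change 1.24 with SE 0.15, adjusted p = 4.17e-06). H2-T23 read 143 and 173 against 71.5 and 61.2 (log2 fold change 1.16 with SE 0.20, adjusted p = 0.000388), and B2m 7038 and 7049 against 4714 and 4862 (log2 fold change 0.49 with SE 0.09, adjusted p = 0.000857). All 3 were higher in both ∆Foxp3 samples than in either WT sample. H2-T22, Psmb8, H2-D1 and H2-Q7 were higher by 0.95, 0.74, 0.55 and 0.36 on the log2 scale. H2-Q4 (0.65), H2-Q6 (0.49) and H2-K1 (0.17) were not called. Myeloid markers in this class summed to 49.9 and 34.1 CPM in ∆Foxp3 and 9.45 and 5.24 in WT, and B cell markers to 68.2 and 56.8 against 174 and 209.7. CD8 T and NK markers were lower in both ∆Foxp3 samples than in WT, which had 33.7 and 41.9 in WT. Without marker-holding and NKT cells 5 members were called. B2m (0.43, adjusted p = 0.0765) and H2-Q7 (0.45, adjusted p = 0.0788) were then not called by edgeR. The part of these markers in the result was not tested.

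The genotype difference itself differed between resting and activated V2 cells for 5 members (edgeR interaction; 7.2% of 9050 genes called, 2.62% higher and 4.59% lower). It was smaller in activated cells for Psmb8, with a log2 difference of -0.53 with SE 0.06, adjusted p = 1.17e-05. It was smaller likewise for H2-T23 (-0.52), H2-T22 (-0.43) and B2m (-0.35), and larger for H2-D1 (0.28). B2m in activated cells read 6222 and 5935 CPM in ∆Foxp3 and 5858 and 5273 in WT, a narrower gap than in resting cells. Without the cells that held other types' markers or were NKT, 0 members were called by edgeR, and DESeq2 on all cells called 3.

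Other genes of the pathway also rose in resting V2 cells. All 5 of the immunoproteasome and activator list were higher and 5 of 8 of the peptide loading list, with medians of 1.01 and 0.50. Among all genes tested 12% were higher and 7.63% lower, which stands beside each list count here. Psmb9 and Psmb10, the other 2 inducible catalytic subunits, had log2 fold changes of 1.08 (adjusted p = 0.000148) and 1.09 (adjusted p = 0.000187), and the activator subunits Psme1 and Psme2 of 1.01 (adjusted p = 5.99e-05) and 0.91 (adjusted p = 0.000192). Tapbp, which bridges TAP and the heavy chain, had 1.19 (adjusted p = 5.99e-05), and Tap2, the partner of Tap1, 0.94 (adjusted p = 0.000167). All adjusted p-values are from edgeR. Of 16 constitutive proteasome genes 7 were higher and 0 lower, with a median of 0.26. Tapbpl had 1.33 (adjusted p = 7.73e-05). Of 6 other class I heavy chain and partner genes tested 1 was higher, H2-M3, at 0.72 (adjusted p = 0.00125).

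Among the regulators, the interferon-driven factor Irf1 (1.62, adjusted p = 1.37e-05) and the class I transactivator Nlrc5 (1.23, adjusted p = 0.00167) rose (edgeR), as did Irf2, while Nfya, Creb1 and Rfxap fell. Irf1 read 247 and 245 CPM in ∆Foxp3 and 82.6 and 76.6 in WT, without overlap. Of 8 MHC class II genes 6 were higher and 1 lower, led by the invariant chain Cd74 (3.59, adjusted p = 1.18e-06), with H2-Ob the lower one, and of 14 mitochondrially encoded genes 0 were higher and 8 lower, again beside 12% and 7.63% of all genes.

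In intact V3 mice 7 of 10 members were higher in resting ∆Foxp3 cells and 0 lower (edgeR; 41.4% of 10182 genes called, 22.2% higher and 19.2% lower), with a member median of 0.357 against 0.00 over all genes. Here the Qa-2 genes led. H2-Q6 read 209 and 201 CPM in ∆Foxp3 mice aged 3 weeks and 28.2 and 37.5 in WT mice aged 9 weeks, a log2 fold change of 2.41 with SE 0.13, adjusted p = 2.25e-13. That is 5.33-fold on the fitted scale. H2-Q7 read 671 and 636 against 305 and 279 (log2 fold change 0.87 with SE 0.08, adjusted p = 6.76e-09), and their sum gave 1.11 (adjusted p = 4.01e-11). Within channel A the difference for H2-Q6 was 2.61 and within channel B 2.14, each from 1 sample per genotype.

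Tap1 read 263 and 254 CPM against 121 and 116 in intact V3 mice (log2 fold change 0.83 with SE 0.09, adjusted p = 8.17e-08), and Psmb8 885 and 869 against 509 and 546 (log2 fold change 0.45 with SE 0.06, adjusted p = 3.46e-06). H2-Q4 read 214 and 218 against 132 and 134 (log2 fold change 0.42 with SE 0.09, adjusted p = 0.000679). In each of the 3 both ∆Foxp3 samples lay above both WT samples. H2-D1 read 2774 and 2777 against 1832 and 1881 (log2 fold change 0.29 with SE 0.05, adjusted p = 6.32e-05), and B2m 2545 and 2463 against 1772 and 1736 (log2 fold change 0.23 with SE 0.05, adjusted p = 0.00108).

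H2-T23 (0.19, adjusted p = 0.0634), H2-K1 (-0.09, adjusted p = 0.194) and H2-T22 (-0.17, adjusted p = 0.0954) were not called by edgeR. With the channel, which the sample number gives, as a block, H2-T23 had the same fold change and an adjusted p of 0.0239. For H2-T23 the CPM and the fitted fold change had the same direction, and for H2-T22 and H2-K1 they had opposite ones. H2-T22 read 228 and 223 CPM in ∆Foxp3 and 208 and 208 in WT. H2-K1 read 3034 and 2803 CPM in ∆Foxp3 and 2568 and 2541 in WT, higher in both ∆Foxp3 samples. The test scales by TMM factors, which were 1.16 in both ∆Foxp3 samples against 0.955 in both WT samples. With library totals in place of TMM the median over all genes stood at 0.28, H2-K1 at 0.19 (adjusted p = 0.00728, edgeR), and H2-T22 at 0.12 (adjusted p = 0.250, edgeR), so the direction of both rests on the scaling. Totals also took the split of all genes from 2265 higher and 1952 lower to 3776 and 1030.

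**Figure D2:**
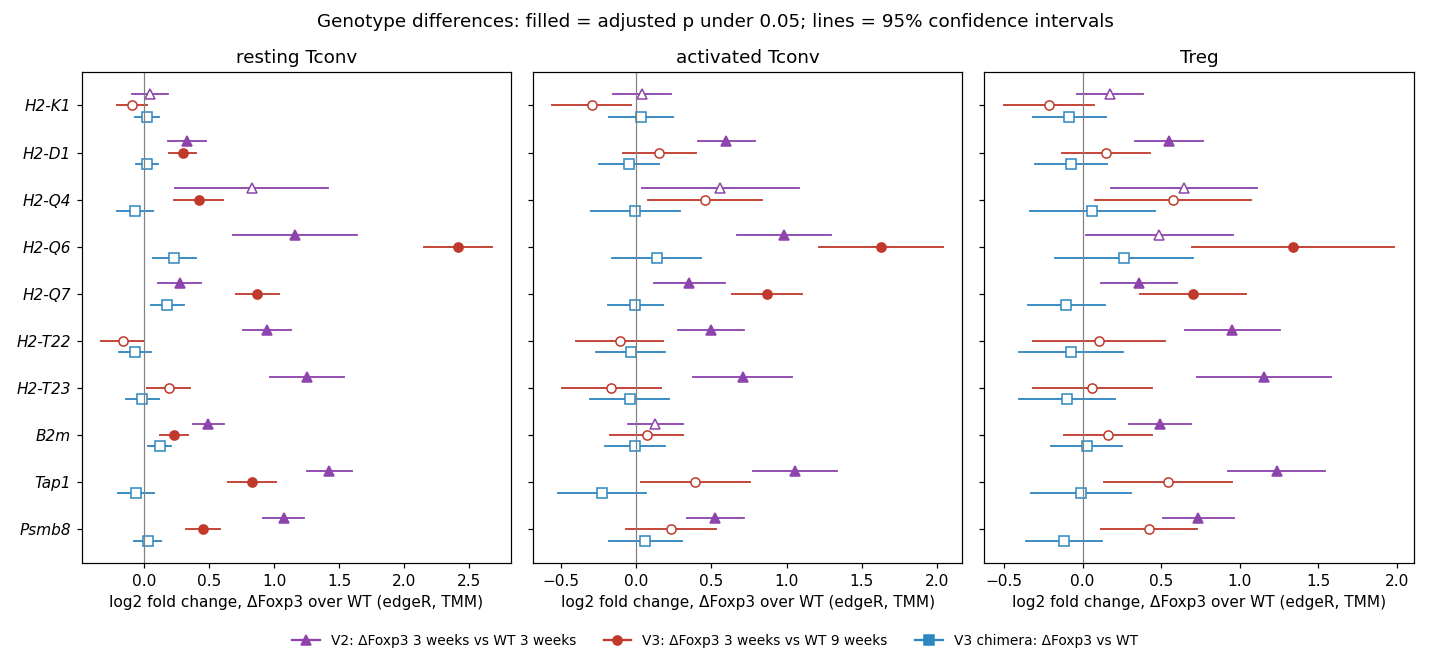
Log2 fold change of ∆Foxp3 over WT for the 10 genes in 3 cell classes, for V2 mice, intact V3 mice and chimeras. Points are edgeR estimates, bars their 95% intervals, and filled points have an adjusted p under 0.05. H2-Q6 reaches 2.41 in resting cells of intact V3 mice and 0.23 in chimeras, where 0 of the 10 genes is filled in any class.

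In the other classes of intact V3 mice only the Qa-2 pair was called. In activated Tconv cells 2 members were higher and 0 lower (edgeR; 10% of 8744 genes called, 5.31% higher and 4.7% lower). H2-Q6 read 252 and 223 CPM in ∆Foxp3 and 63.4 and 96.1 in WT (log2 fold change 1.62 with SE 0.19, adjusted p = 7.37e-05), and H2-Q7 791 and 716 against 419 and 419 (log2 fold change 0.87 with SE 0.11, adjusted p = 0.000127). Tap1 had 0.39 (adjusted p = 0.157) and Psmb8 0.23 (adjusted p = 0.318). In the Treg class H2-Q6 and H2-Q7 were the 2 members higher, with 0 lower (edgeR; 7.09% of 6136 genes called, 3.6% higher and 3.49% lower). The log2 fold change was 1.34 with SE 0.32, adjusted p = 0.00607, for H2-Q6 and 0.70 with SE 0.17, adjusted p = 0.00599, for H2-Q7. H2-Q6 read 276 and 278 CPM in ∆Foxp3 and 64.5 and 148 in WT, where it had only 13 and 26 UMIs. Its difference was 1.98 within channel A and 0.88 within channel B. Leaving out 1 sample took the Treg count to 1 for WT sample 1, WT sample 2 and ∆Foxp3 sample 2. The activated minus resting difference of the genotype effect was called for 1 member, H2-Q6, at -0.71 with SE 0.19, adjusted p = 0.0214 (edgeR; 5.45% of 10630 genes called, 1.86% higher and 3.58% lower), and DESeq2 called 0. The count was also 0 without WT sample 1, WT sample 2 or ∆Foxp3 sample 2.

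Beside these values, myeloid markers in resting cells summed to 30.8 and 34.7 CPM in intact V3 ∆Foxp3 samples and 7.68 and 15.4 in WT, and B cell markers to 62.2 and 60.0 against 186 and 174. CD8 T and NK markers summed to 25.4 and 31.2 against 14.5 and 14.8. Without cells that held such markers or were NKT, 7 members were still called in resting cells. In activated V3 cells myeloid markers summed to 36.2 and 59.4 CPM in ∆Foxp3 and 10.8 and 34.2 in WT, and B cell markers to 50.7 and 53.4 against 199.5 and 271. In the V3 Treg class myeloid markers summed to 30.4 and 32.4 against 4.96 and 11.4, and B cell markers to 25.7 and 73.2 against 263 and 387. Without such cells 2 members were called in activated cells and 1 in the Treg class. Of the pathway lists in resting V3 cells, 3 of 5 immunoproteasome and activator genes and 3 of 8 peptide loading genes were higher and 0 lower, where 22.2% of all genes tested were higher and 19.2% lower. Constitutive proteasome genes were higher in 13 of 16 (median 0.49), led by Psmb2 (0.72, adjusted p = 4.17e-07). Irf1 had a log2 fold change of 0.60 (adjusted p = 0.000397), Tap2 of 0.59 (adjusted p = 3.31e-05), Tapbp of 0.42 (adjusted p = 0.000162) and Psmb10 of 0.41 (adjusted p = 0.000513), all by edgeR. Nlrc5 (0.41, adjusted p = 0.0506), Psmb9 (0.16, adjusted p = 0.109) and Psme1 (0.10, adjusted p = 0.287) were not called. Other calls of these lists included Tapbpl, Psme2, Pomp and Nfyb, which were higher, and Rfxank, Nfya, H2-T24 and Cd1d1, which were lower. Of 14 mitochondrially encoded genes 11 were lower.

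In mixed chimeras, where ∆Foxp3 and WT T cells shared a host, 0 of 10 members were called in resting Tconv cells (edgeR; 1.28% of 10182 genes called, 0.864% higher and 0.412% lower), with 3 members at an unadjusted p under 0.05 and 0 called by DESeq2. H2-Q6 read 88.9, 105 and 87.5 CPM in ∆Foxp3 cells and 84.7, 82.8 and 86.0 in WT cells (log2 fold change 0.23 with SE 0.08, adjusted p = 0.285, 95% interval 0.07 to 0.39). Tap1 read 115, 125 and 132 against 129, 147 and 136 (log2 fold change -0.06 with SE 0.07, adjusted p = 0.982, interval -0.20 to 0.07), and B2m 1797, 1837 and 1747 against 1775, 1781 and 1737 (log2 fold change 0.12 with SE 0.04, adjusted p = 0.328). Each ∆Foxp3 sample lay above each WT sample for H2-Q6, by a small margin, and the genotypes overlapped for Tap1 and B2m. H2-Q7 read 619.9, 625 and 603 against 579, 618 and 543 (log2 fold change 0.18 with SE 0.06, adjusted p = 0.270). With the mouse as a block, which pairs the cells of 1 host, the fold change of H2-Q7 was 0.18 with an adjusted p of 0.0206 (edgeR). It was the only member called. The genotypes of each mouse were read in different channels, so this pairing also compares channels. That block took the genes called from 130 to 230 in resting cells, from 12 to 103 in activated cells and from 22 to 47 in the Treg class. Within channel A the difference was 0.17 for H2-Q6 and 0.06 for H2-Q7, and within channel B 0.41 and 0.26. These values compare cells of different mice, with 2 ∆Foxp3 samples and 1 WT in channel A and 1 and 2 in channel B. With the channel as a covariate 0 members were called (edgeR).

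The remaining members of the chimera comparison lay between -0.07 (H2-T22) and 0.03 (Psmb8) on the log2 scale in resting cells. Without WT sample 1 and ∆Foxp3 sample 2, 0 members were called. Activated cells gave 0 members (edgeR; 0.137% of 8744 genes called, 0.0572% higher and 0.0801% lower), with 0 at an unadjusted p under 0.05 and 0 by DESeq2, and so did the Treg class (0.359% of 6136 genes called, 0.179% higher and 0.179% lower), again with 0 and 0. Tap1 in activated cells had a log2 fold change of -0.22 (interval -0.52 to 0.07). Pathway lists gave 0 genes in either direction in resting cells. Of 4 erythroid genes 4 were lower in ∆Foxp3, with 2.77, 79.7 and 295 CPM in WT samples 1 to 3 against at most 10.9 in ∆Foxp3, and their part in the result was not tested. The interaction of genotype and activation was called for 0 members (edgeR; 0.0564% of 10630 genes called, 0% higher and 0.0564% lower), with 1 at an unadjusted p under 0.05 and 0 by DESeq2.

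The genotype effect was set against its counterpart in chimeras by an interaction test, in which age and host go with the chimera and cannot be told apart from it. In resting cells it was larger in intact V3 mice for 6 members and smaller for 0 (edgeR; 33.5% of 10182 genes called, 17.6% higher and 15.9% lower), also without the samples of contrary strain entry. The difference of the effects was 2.18 with SE 0.15, adjusted p = 7.72e-11, for H2-Q6 and 0.89 with SE 0.11, adjusted p = 1.27e-06, for Tap1. H2-Q7 (0.69), H2-Q4 (0.49), Psmb8 (0.43) and H2-D1 (0.28) were called as well. B2m (0.11), H2-T23 (0.21), H2-T22 (-0.09) and H2-K1 (-0.11) were not. By library totals all 10 were called, with H2-K1 at 0.26 and H2-T22 at 0.28, where the median of all genes moved to 0.37. In activated cells 2 were called (8.19% of 8744 genes called, 4.67% higher and 3.52% lower), H2-Q6 (log2 fold change 1.49 with SE 0.24, adjusted p = 0.00178), and H2-Q7 (log2 fold change 0.87 with SE 0.14, adjusted p = 0.00171). With the sample number as a block (the mouse in chimeras, the channel in intact mice) Tap1 was called too, at 0.61 (adjusted p = 0.0199, edgeR), but with the channel alone as a covariate it was not (adjusted p = 0.108, edgeR).

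H2-Q6 and H2-Q7 were also higher in WT cells of chimeras than in WT cells of intact 9-week-old mice. They were the 2 members called in resting cells (edgeR; 0.334% of 10182 genes called, 0.118% higher and 0.216% lower), also without the chimera sample of contrary strain entry. H2-Q6 read 84.7, 82.8 and 86.0 CPM in chimera WT and 28.2 and 37.5 in intact WT (log2 fold change 1.33 with SE 0.13, adjusted p = 5.63e-07). H2-Q7 read 579, 618 and 543 against 305 and 279 (log2 fold change 0.90 with SE 0.08, adjusted p = 5.97e-08). By p-value they stood 8 and 5 among all genes tested. Sorted Tconv cells of the same WT strain and age read 33.2 and 40.7 CPM for H2-Q6 and 279 and 348 for H2-Q7 in resting cells, next to the unsorted intact WT. Every other member lay between -0.08 (B2m) and 0.13 (Tap1).

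Against intact ∆Foxp3 cells, chimera ∆Foxp3 cells were lower for 7 members and higher for 1 (edgeR; 50.7% of 10182 genes called, 24.3% higher and 26.4% lower). H2-Q6 was lower, with a log2 fold change of -0.85 with SE 0.08, adjusted p = 7.25e-09, at 88.9, 105 and 87.5 CPM against 209 and 201. H2-Q7 was higher on the scale of the test (0.21 with SE 0.07, adjusted p = 0.0145) but lower in CPM, at 619.9, 625 and 603 against 671 and 636. The sum of both stood at 0.02 (adjusted p = 0.846). By library totals H2-Q7 turned to -0.09, not called. Tap1 was lower as well (-0.76 with SE 0.07, adjusted p = 4.69e-09). H2-Q4 (-0.46), Psmb8 (-0.36), H2-D1 (-0.26), H2-T23 (-0.24) and B2m (-0.19) were lower too. H2-K1 (0.12) and H2-T22 (0.09) were not called, and by library totals both turned lower, to -0.17 and -0.20. With a block, H2-K1 was called higher, at 0.17 (adjusted p = 0.00939). Without the 2 chimera samples of contrary strain entry, 9 members were called, H2-K1 being the added one, at 0.15 (edgeR, adjusted p under 0.05). This comparison shares its samples with those above.

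**Figure D3:**
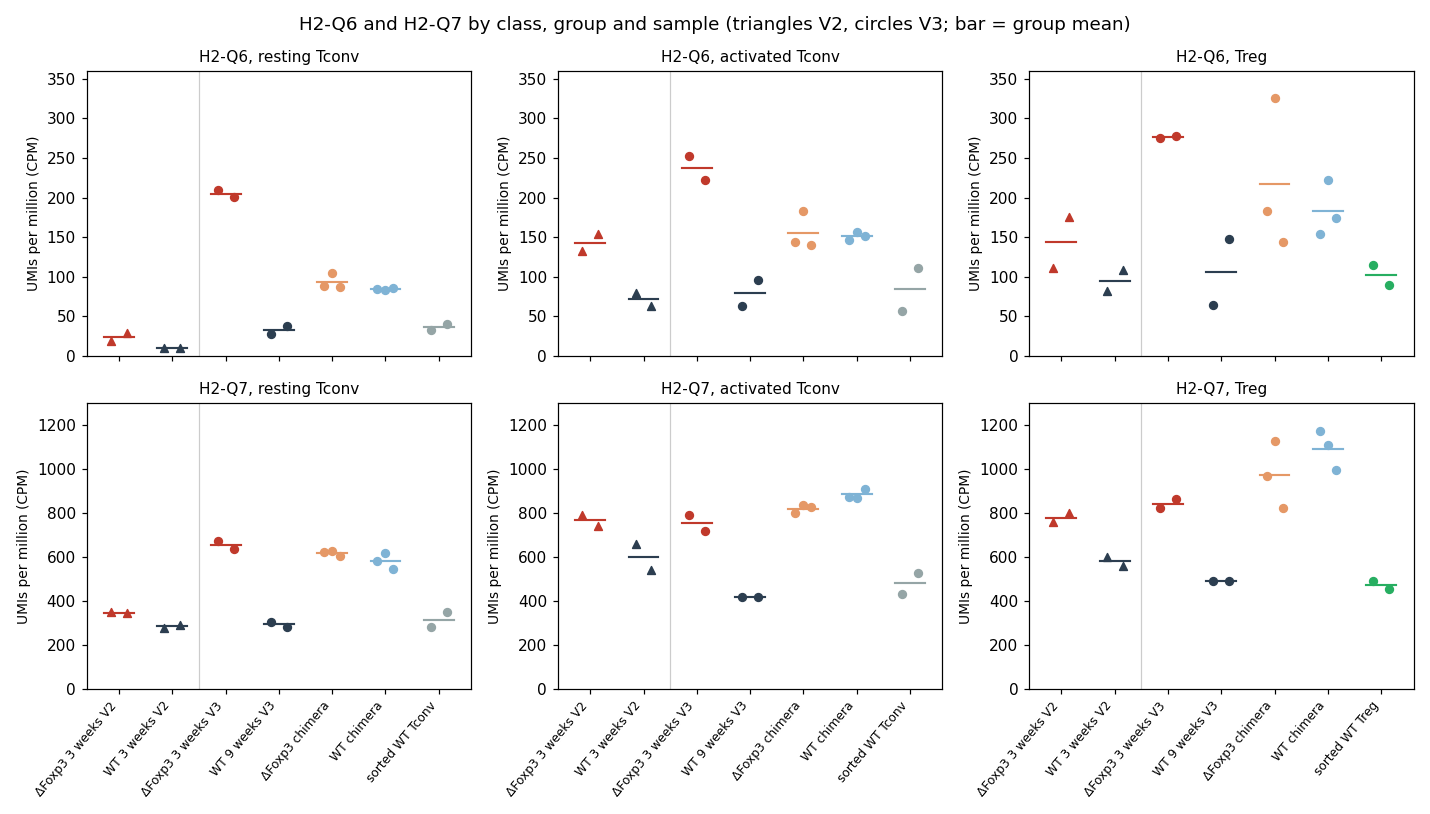
Levels of H2-Q6 and H2-Q7 in CPM on a linear axis, by cell class and group. Points are samples and bars group means. In resting cells H2-Q6 stands at 209 and 201 in intact V3 ∆Foxp3, 84.7, 82.8 and 86.0 in chimera WT and 28.2 and 37.5 in intact WT, while H2-Q7 in chimera WT (579, 618 and 543) lies near intact ∆Foxp3 (671 and 636).

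The spacing of resting V3 levels in CPM was not the same for the pair, although the order of the group means was. For H2-Q6, intact ∆Foxp3 was highest, both chimera genotypes lay between, and intact WT and sorted Tconv were lowest. For H2-Q7 the mean was 654 in intact ∆Foxp3, 616 in chimera ∆Foxp3 and 580 in chimera WT. Samples of the 2 chimera genotypes overlapped, and intact WT was again lowest, at a mean of 292. H2-Q6 made up 23.9 ± 0.161% of the UMIs of the pair in intact ∆Foxp3 and 10.2 ± 2.42% in intact WT, with 13.2 ± 1.05% and 12.8 ± 0.932% in chimera ∆Foxp3 and WT cells (mean ± SD, n = 2, 2, 3 and 3). In V2 libraries the share was 6.45 ± 1.85% and 3.34 ± 0.156%. The share depends on how reads of 2 close copies were assigned.

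**Figure D4:**
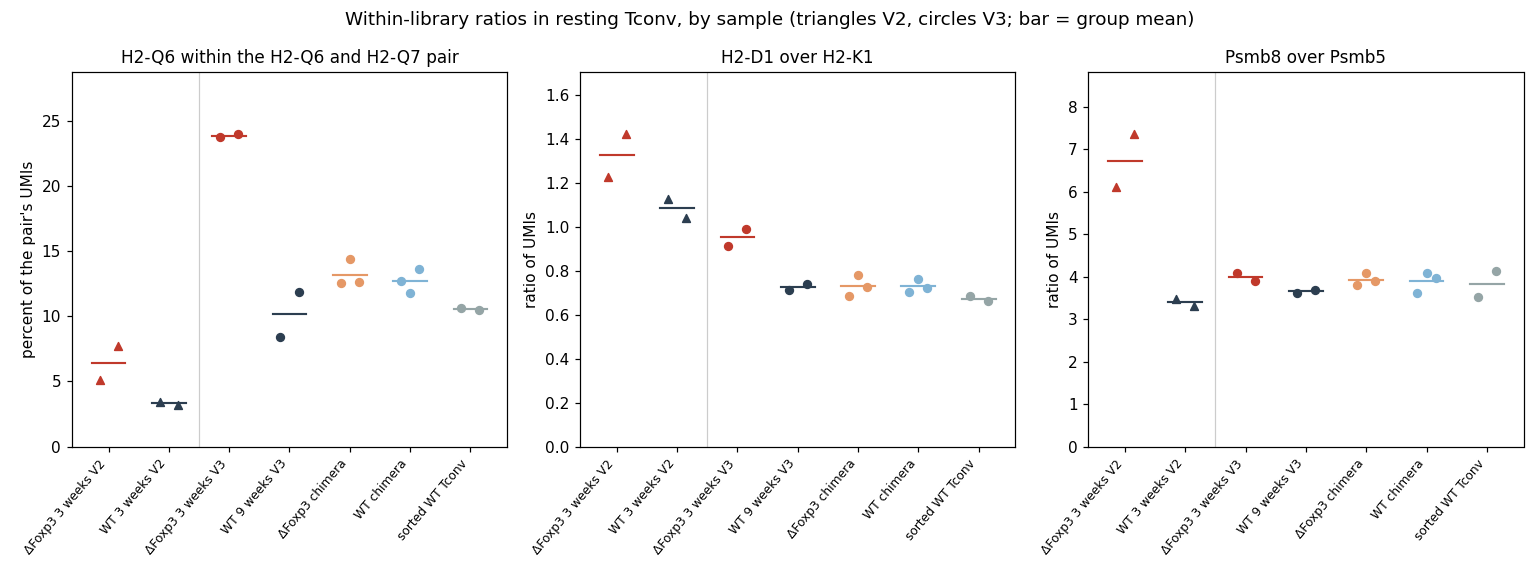
H2-Q6 as a percentage of H2-Q6 and H2-Q7 UMIs, the ratio of H2-D1 to H2-K1, and the ratio of Psmb8 to Psmb5 in resting Tconv cells, by group on linear axes, with samples as points and group means as bars. The H2-D1 to H2-K1 ratio is 0.953 ± 0.0539 in intact V3 ∆Foxp3 and 0.727 ± 0.0189 in intact WT. For that ratio the chimera samples sit beside intact WT.

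The ratio of H2-D1 to H2-K1, which does not depend on the scaling, was 0.953 ± 0.0539 in intact V3 ∆Foxp3 and 0.727 ± 0.0189 in intact WT. In chimeras it was 0.731 ± 0.0473 in ∆Foxp3 and 0.730 ± 0.0283 in WT cells. Psmb8 to Psmb5 stood at 3.99 ± 0.124 and 3.65 ± 0.0563 in intact V3 ∆Foxp3 and WT. In chimeras it was 3.93 ± 0.153 in ∆Foxp3 and 3.89 ± 0.245 in WT cells (mean ± SD, n = 3 each), and the WT samples, from 3.62 to 4.09, overlapped both intact genotypes. As a share of UMIs, the members held 1.10 ± 0.0278% in intact V3 ∆Foxp3, 0.771 ± 0.00170% in intact WT, 0.822 ± 0.00834% in chimera ∆Foxp3 and 0.847 ± 0.0192% in chimera WT.

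Activation and class are described without a test, because the classes were made from these cells' transcripts. In WT V2 cells H2-Q6 rose most from resting to activated Tconv, by a mean log2 ratio of CPM of 2.86, or 2.65 with ribosomal protein and mitochondrially encoded genes left out of the totals. In V2 ∆Foxp3 the ratio was 2.62 (2.33). H2-K1 had 0.43 (0.22) in WT and 0.42 (0.14) in ∆Foxp3, with the second totals in parentheses. Tap1 had 0.42 (0.21) in WT and 0.06 (-0.22) in ∆Foxp3, where its sign depends on the totals. In intact V3 cells H2-Q6 had 1.26 (0.93) in WT and 0.21 (0.11) in ∆Foxp3. Tap1 had 0.79 (0.45) and 0.04 (-0.06). Activated chimera cells stood above resting ones for H2-Q6 by 0.84 (0.52) in WT and 0.72 (0.45) in ∆Foxp3.

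Across the authors' 12 clusters per kit, the activated Treg cluster was often the highest, with all genotypes pooled. H2-Q6 in V2 read 187 ± 23.9 CPM (SD, n = 4) there and 14.1 ± 1.30 (n = 4) in the resting cluster named for Irf7, an interferon-induced factor. In V3, H2-K1 read 4980.4 ± 701 CPM (SD, n = 10) in activated Treg cells and 2620.2 ± 143 (n = 12) in the first resting cluster, and Tap1 read 319.7 ± 41.7 CPM (SD, n = 10) and 137 ± 50.0 (n = 12) in the same clusters. H2-T23 in V3 was also highest in activated Treg cells, at 492 ± 63.0 CPM (SD, n = 10). H2-T22 went another way in V2: the resting Irf7 cluster was highest, at 479.7 ± 180.2 CPM (SD, n = 4), and the tissue-like Tconv cluster lowest, at 272 ± 58.1 (n = 4).

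Sorted WT Treg and Tconv cells give a comparison that does not use the annotation. Over all cells of the sort 4 of 10 members were higher in Treg cells and 0 lower (edgeR; 12.2% of 10918 genes called, 6.16% higher and 6.01% lower). H2-Q6 read 115 and 89.6 CPM in Treg cells and 36.2 and 58.6 in Tconv (log2 fold change 0.95 with SE 0.25, adjusted p = 0.0200). H2-D1 read 2749 and 3034 against 1859.7 and 2111 (log2 fold change 0.29 with SE 0.07, adjusted p = 0.00754). H2-T23 (log2 fold change 0.33 with SE 0.08, adjusted p = 0.0173) and B2m (log2 fold change 0.22 with SE 0.06, adjusted p = 0.0276) were higher too. H2-K1 read 3919.8 and 4067 against 2686 and 3106, without overlap, but was not called (log2 fold change 0.22 with SE 0.07, adjusted p = 0.0663). Its call changed with the setting. H2-K1 was called with the sample number as a block (edgeR, adjusted p = 0.0345), by DESeq2 (adjusted p = 0.00523), and without marker-holding and NKT cells, as given below. Library totals moved the median of all genes to 0.26, called 9 members and took the split of all genes from 673 higher and 656 lower to 1624 and 360. Leaving out sorted Tconv sample 1 left 0 members called, and leaving out either Treg sample left 2. B cell markers summed to 313 and 380 CPM in sorted Treg cells and 179 and 174 in sorted Tconv cells, and 45.6% and 64.9% against 33.4% and 38.5% of cells held markers of other types or were NKT. Without those cells 3 members were called, all higher, but not the same ones. They were H2-D1, H2-K1 (adjusted p = 0.0183) and H2-Q7 (adjusted p = 0.0459), by edgeR. H2-Q6 (adjusted p = 0.0822), H2-T23 (adjusted p = 0.197) and B2m (adjusted p = 0.125) were then not called by edgeR. DESeq2 on all cells called 6 members.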

How the data were processed

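The deposited matrix holds raw UMI counts per gene and cell, made with Cell Ranger 3.0.2 on mm10 per the submitters' processing notes. The authors' deposited cell table gives each cell's sample, class, cluster, channel, percent of mitochondrial UMIs (at most 15.0), and doublet score as a fraction (at most 0.293). Their filters are not given in the sources used here. No further cell or doublet filter was applied to the 26652 cells, and 45 columns of that table were not used. Column sums equalled the recorded counts in 92.2% of cells. Some 99 barcodes occurred in more than 1 sample, with 0 inside a V3 channel.

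UMIs were summed by sample and class (at least 20 cells) and tested with edgeR 4.0.16 quasi-likelihood fits (R 4.3.3, scaled by TMM, genes kept by filterByExpr at 10 counts), with V2 and V3 fitted apart. P-values were adjusted by Benjamini-Hochberg over all genes tested, and 0.05 was the threshold. CPM uses library totals. The script was tested on simulated data. Alternatives were DESeq2 1.42.0, RLE factors, totals only, no filter, each sample left out, a replicate block, fewer cells, and H2-Q6 with H2-Q7 summed. Channel as a covariate, leaving out the samples of contrary strain entry, leaving out Irf7 clusters and within-channel values were added after the data were seen. The members and lists were chosen with earlier results of these data known. The text names all members and, from each list, up to 3 genes of lowest p plus preset pathway genes. The result of 1 listed gene is not reported here.

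Chimera samples of 1 number came from 1 mouse, per the labels' hashtags. Their deviations correlated at r = 0.120, 0.0472 and 0.0712 in resting cells (across genes). Between genotypes of different mice r ran from -0.111 to 0.0580, so these ranges overlapped.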

Additional observations from a re-analysis of the deposited data

Results flagged for a closer look

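Comparisons of the genotype effect found differences between settings, each by an interaction term in edgeR with an adjusted p under 0.05. In resting Tconv cells the effect was larger in intact V3 mice than in chimeras for H2-Q6 (log2 difference 2.18), Tap1 (0.89), H2-Q7 (0.69), H2-Q4 (0.49), Psmb8 (0.43) and H2-D1 (0.28). In activated Tconv cells it was larger for H2-Q6 (1.49) and H2-Q7 (0.87). Age and host differ between those settings and cannot be told apart from them.

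Between activated and resting Tconv cells of V2 mice the effect differed by -0.53 for Psmb8, -0.52 for H2-T23, -0.43 for H2-T22, -0.35 for B2m and 0.28 for H2-D1. In intact V3 mice it differed by -0.71 for H2-Q6.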

How the results depend on the processing

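Of 2380 tests of members under alternatives, 2253 kept their direction where called and their side of the threshold. Scaling by library totals turned H2-K1 to 0.19 in intact V3 resting cells, H2-K1 and H2-T22 to 0.26 and 0.28 in the intact minus chimera difference, and H2-K1, H2-Q7 and H2-T22 to -0.17, -0.086 and -0.20 in chimera against intact ∆Foxp3 cells. The sum standing for H2-Q6 turned the last comparison to 0.018. Totals called 10 members in the intact minus chimera difference, 9 in the sorted cells and 7 in the V3 activated minus resting difference. DESeq2 called 4 in V2 activated cells, 3 in the V2 activated minus resting difference and 0 in that of V3, where the summed pair also left 0. Without cells holding markers of other types, the V3 Treg count was 1 and the V2 activated minus resting count 0. The causes were not tested. Leaving out 1 sample gave 4 to 9 members in V2 resting cells, 4 to 8 in activated and 5 to 9 in the Treg class. It gave 7 to 7 in intact V3 resting cells and 1 to 2 in the Treg class, 0 to 3 in sorted cells, 3 to 5 and 0 to 1 in the V2 and V3 activated minus resting differences, 2 to 3 in the intact minus chimera difference of activated cells and 7 to 9 in chimera against intact ∆Foxp3.

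With the replicate block, 1 member was called in resting chimera cells (H2-Q7, 0.18), where both samples of each mouse were read in different channels. In V2, where a shared letter is only a letter, the block called H2-Q4 in resting cells (0.79) and in activated cells (0.54) and lost H2-Q7 in the Treg class (0.36). The block changed the call of H2-T23 in intact V3 resting cells, of H2-K1 in sorted cells and in chimera against intact ∆Foxp3, and of Tap1 in the intact minus chimera difference of activated cells, and of no other member.

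Counts over all genes moved more than those over members. DESeq2 took V2 calls from 1972 to 1001 in resting cells, from 1238 to 425 in activated and from 890 to 289 in Treg cells, from 652 to 208 in the V2 activated minus resting difference, from 579 to 338 in that of V3, from 435 to 282 in V3 Treg cells, from 22 to 12 in chimera Treg cells and from 34 to 67 in chimera against intact WT. With no filter on low counts, calls rose from 34 to 99 there, from 130 to 225 in chimera resting, from 12 to 264 in chimera activated and from 22 to 58 in chimera Treg cells, from 6 to 108 in the chimera activated minus resting difference, from 875 to 1377 in V3 activated cells and from 716 to 1208 in the matching intact minus chimera difference. A block took chimera against intact WT to 95, and the channel as a covariate to 73. Without marker-holding cells, calls fell from 1238 to 635, 890 to 436, 435 to 150, 1329 to 654, 652 to 247 and 579 to 355 in V2 activated, V2 Treg, V3 Treg, sorted, V2 difference and V3 difference, and rose from 6 to 18 in the chimera difference. Without the samples of contrary strain entry, chimera resting calls fell to 44 and those of the chimera difference rose to 28. Totals took the V3 difference to 1168. Their share of higher calls also moved in the intact minus chimera difference, from 1789 higher and 1617 lower to 3650 and 744, in chimera against intact ∆Foxp3, from 2479 and 2685 to 1240 and 4482, and in chimera resting cells, from 88 and 42 to 18 and 75.

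Depth limits low values, such as H2-Q6 in V2 WT resting samples, at 9.91 and 9.69 CPM. Groups of 2 and 3 samples limit every test.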
